A study of Mus musculus with 6 samples.

Results

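The 10 genes described here encode the proteins that organize the postsynaptic side of the neuromuscular junction, the enzyme that ends transmission there, and the ETS transcription factors of the muscle nuclei beneath the synapse. They were taken by symbol from a list (Agrn, Lrp4, Musk, Dok7, Rapsn, Ache, Colq, Etv5, Etv4 and Gabpa), all 10 were found among the 23997 symbols measured, and all 10 had an FPKM (a level in sequenced fragments, scaled to the length of the transcript and the size of the library) above 0.5 in every library. The list was chosen by FPKM, that is, proposed with the difference between the genotypes in these same libraries already known, so the members' differences between genotypes are given as a description, with no p-value for any of the 10 and with counts of calls that test nothing. Messenger RNA of the gastrocnemius, a calf muscle of mixed fiber type, was sequenced from 3 untreated WT and 3 untreated Hras G12V mice, all 21 days old, with 1 library per mouse. Hras G12V mice (Caggs-Cre+/HrasG12V/+) carried 1 allele of the constitutively active mutant of the GTPase Hras, switched on by a Cre recombinase under the broadly active CAG promoter and therefore not restricted to muscle fibers. The WT littermates (Caggs-Cre-/HrasflG12V/+) had no Cre and carried the floxed G12V allele in its silent form, so the presence of Cre and the mutation cannot be told apart. The strain descends from SWR/J, 129S1/SvImJ and C57BL/6J mice and models Costello syndrome, and the question put to these libraries was how the mutation changes transcription in skeletal muscle.

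At the junction the motor neuron secretes agrin (Agrn), which binds Lrp4 on the muscle membrane. Lrp4 activates the receptor tyrosine kinase MuSK, the adaptor Dok7 keeps MuSK active from inside the cell, and rapsyn (Rapsn) ties the acetylcholine receptors into clusters. Acetylcholinesterase (Ache) breaks down the transmitter and is held in the synaptic basal lamina by the collagen tail ColQ (Colq). ETS factors, among them Gabpa and the related Etv4 and Etv5, bind a short DNA element called the N-box in promoters of synaptic genes. Through the N-box these genes are transcribed mainly by the few nuclei under the synapse. Myogenic factors bind another element, the E-box.

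The libraries did not form uniform groups. The sum of all FPKM was 814013 in Hras G12V mouse 2276 and between 413020 and 547122 in the other 5 libraries, while the median FPKM of the 13359 genes tested stayed between 6.39 and 6.64. Transcripts of B and T cells were present in Hras G12V mice 2278 and 2279, where 4 B cell markers summed to 69.4 and 54.7 FPKM and 4 T cell markers to 22.9 and 27.2 FPKM, against at most 1.30 FPKM for either list in each of the other 4 mice. Of 7 muscle fiber markers, Mylpf was between 10760 and 36114 FPKM, but Acta1 and Myh4 were listed at 0 in all 6 libraries and 5 of the 7 were listed at 0 in at least 1, which cannot be the level of these genes in muscle. Schwann cell markers summed to between 140 and 382 FPKM in WT and between 237 and 636 FPKM in Hras G12V mice, and 2 of the 8 (S100b and Mag) were higher in every Hras G12V mouse. The sum of 5 endothelial markers was 139 to 171 FPKM in WT and 123 to 124 FPKM in Hras G12V mice, with Cdh5 lower in every one. The sum of 3 satellite cell markers overlapped, at 12.4 to 12.6 FPKM in WT and 9.76 to 16.6 FPKM in Hras G12V mice. Of these, Pax7 and Myf5 were higher in every Hras G12V mouse. Cdh15 overlapped, at 9.66 to 10.3 FPKM in WT and 6.45 to 12.6 FPKM in Hras G12V mice. Of all genes tested, 8.11% were higher and 10.4% lower in every Hras G12V mouse. The part of these cell types in the members' levels was not tested. The sum of 5 motor neuron markers was at most 0.421 FPKM in any library, with Slc18a3 and Mnx1 at 0 in all 6. Hras itself had an FPKM of 36.8, 36.0 and 51.8 in WT and of 58.8, 28.9 and 16.0 in Hras G12V mice, which does not check the labels because the FPKM does not tell the mutant and the normal allele apart. The paper reports that its sequence reads held mutant and normal Hras transcripts in about equal amounts in Hras G12V muscle. The study's methods give only a nominal depth for all libraries, and the deposited FPKM do not show how many reads stood behind each value.

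Promoter sequences were available for 6 of the 10 genes (Musk, Agrn, Dok7, Ache, Etv5 and Gabpa). The windows printed are the 250 bases before the transcription start in the RefSeq annotation of GRCm38.p6, written 5′ to 3′ on the strand of the gene, with matches to the N-box (CCGGAA, either strand) and the E-box (CANNTG, its own reverse complement in form) in capitals. They are shown for Musk, Ache and Etv5, which were higher in every Hras G12V mouse, for Gabpa, which was lower in every one, and for Chrne, the receptor subunit gene with the greatest fold change among the 5 subunits. They lie at chr4:58285712-58285961 on the plus strand for Musk, at chr5:137288004-137288253 on the plus strand for Ache, at chr16:22439571-22439820 on the minus strand for the first of the 2 starts of Etv5, at chr16:84834874-84835123 on the plus strand for Gabpa and at chr11:70619195-70619444 on the minus strand for Chrne.
Musk: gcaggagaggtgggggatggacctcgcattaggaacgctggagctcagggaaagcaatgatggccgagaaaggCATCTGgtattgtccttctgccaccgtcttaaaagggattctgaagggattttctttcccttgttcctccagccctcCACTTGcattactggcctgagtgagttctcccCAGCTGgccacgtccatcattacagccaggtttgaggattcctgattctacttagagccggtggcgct
Ache: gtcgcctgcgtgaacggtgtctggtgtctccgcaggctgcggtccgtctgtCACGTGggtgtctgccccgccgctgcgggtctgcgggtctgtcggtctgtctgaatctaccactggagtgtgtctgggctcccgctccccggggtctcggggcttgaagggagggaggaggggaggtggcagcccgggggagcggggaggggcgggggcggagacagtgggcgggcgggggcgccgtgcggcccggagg
Etv5: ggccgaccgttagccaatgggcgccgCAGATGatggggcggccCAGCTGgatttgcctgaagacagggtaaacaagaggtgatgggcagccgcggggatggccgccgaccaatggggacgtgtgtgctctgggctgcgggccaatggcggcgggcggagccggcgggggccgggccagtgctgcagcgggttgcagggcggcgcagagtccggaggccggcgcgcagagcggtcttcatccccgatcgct
Gabpa: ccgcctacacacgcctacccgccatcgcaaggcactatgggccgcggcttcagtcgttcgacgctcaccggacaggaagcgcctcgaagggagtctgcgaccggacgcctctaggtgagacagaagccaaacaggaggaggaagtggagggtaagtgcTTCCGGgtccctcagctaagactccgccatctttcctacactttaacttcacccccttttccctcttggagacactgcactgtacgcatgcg
Chrne: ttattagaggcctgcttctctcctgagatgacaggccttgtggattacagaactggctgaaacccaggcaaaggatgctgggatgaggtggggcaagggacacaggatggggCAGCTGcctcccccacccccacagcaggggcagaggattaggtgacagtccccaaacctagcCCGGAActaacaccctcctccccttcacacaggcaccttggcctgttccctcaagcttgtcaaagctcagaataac
Only the windows of Gabpa and Chrne, among these 5, held an N-box. That of Chrne began 76 bases before the start (position -76), reading CCGGAA on the strand of the gene. That of Gabpa began at position -92 and lay on the opposite strand, as TTCCGG. E-boxes began at positions -177, -100 and -68 in Musk, at -199 in Ache, at -224 and -207 in Etv5 and at -138 in Chrne, and the Gabpa window had none. Of the windows not printed, 1 of 2 for Agrn and 1 of 2 for Dok7 held an E-box, at -92 and -149, and neither gene had an N-box in either window. The window of the second start of Etv5 held no N-box and no E-box. Over all 32851 promoter windows of the same length, 3952 held an N-box and 21753 (66.2%) an E-box, and 13.6% of the 27025 genes had an N-box in at least 1 window. GENCODE, the source of the gene positions given below, can place a start elsewhere than RefSeq. By its positions the Ache window lies within Ache, and the other windows printed overlap their genes in part. These matches describe letters in a window and say nothing about binding.

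Among the genes of the agrin signal, the receptor pair was higher in Hras G12V muscle and the ligand was not. Agrn (chromosome 4, 156165290 to 156197488, minus strand, GRCm38) had an FPKM of 11.5, 10.2 and 8.53 in the WT mice (2277, 2280 and 2281, the order kept throughout) and of 6.79, 9.24 and 9.14 in the Hras G12V mice (2276, 2278 and 2279). The genotypes overlapped, with means of 10.1 and 8.39 FPKM (n = 3 mice each) and a log2 fold change, on the log2(FPKM + 0.1) scale used throughout, of -0.26 (standard error, SE, of 0.19). Most agrin at the synapse is made by motor neurons, whose cell bodies lie outside the muscle, so these values are those of the transcript made within the muscle.

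Lrp4, the agrin receptor (chromosome 2, 91457511 to 91513779, plus strand), was at 5.44, 4.45 and 3.76 FPKM in WT and at 6.93, 5.97 and 7.98 FPKM in Hras G12V mice. All 3 Hras G12V values lay over all 3 WT values, and the log2 fold change was 0.61 (SE 0.19). Its spread was alike in both genotypes, with a coefficient of variation of 18.5% in WT and 14.4% in Hras G12V mice.

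Musk (chromosome 4, 58285960 to 58374303, plus strand) was at 4.61, 5.938 and 3.20 FPKM in WT and at 6.004, 9.83 and 13.7 FPKM in Hras G12V mice. The genotypes were separate only just, since mouse 2276 was barely above WT mouse 2280. The means were 4.58 ± 1.37 and 9.85 ± 3.86 FPKM (SD, n = 3), a log2 fold change of 1.05 (SE 0.35) that was 1.37 without mouse 2276 and 0.78 without mouse 2279. Musk was the only member whose level was lower in mouse 2276 than in both mice with B and T cell transcripts and that was higher in all 3 than in WT, at 0.43, 1.13 and 1.60 above the WT mean on the log2 scale. Whether those transcripts and Musk are related was not tested.

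**Figure D1:**
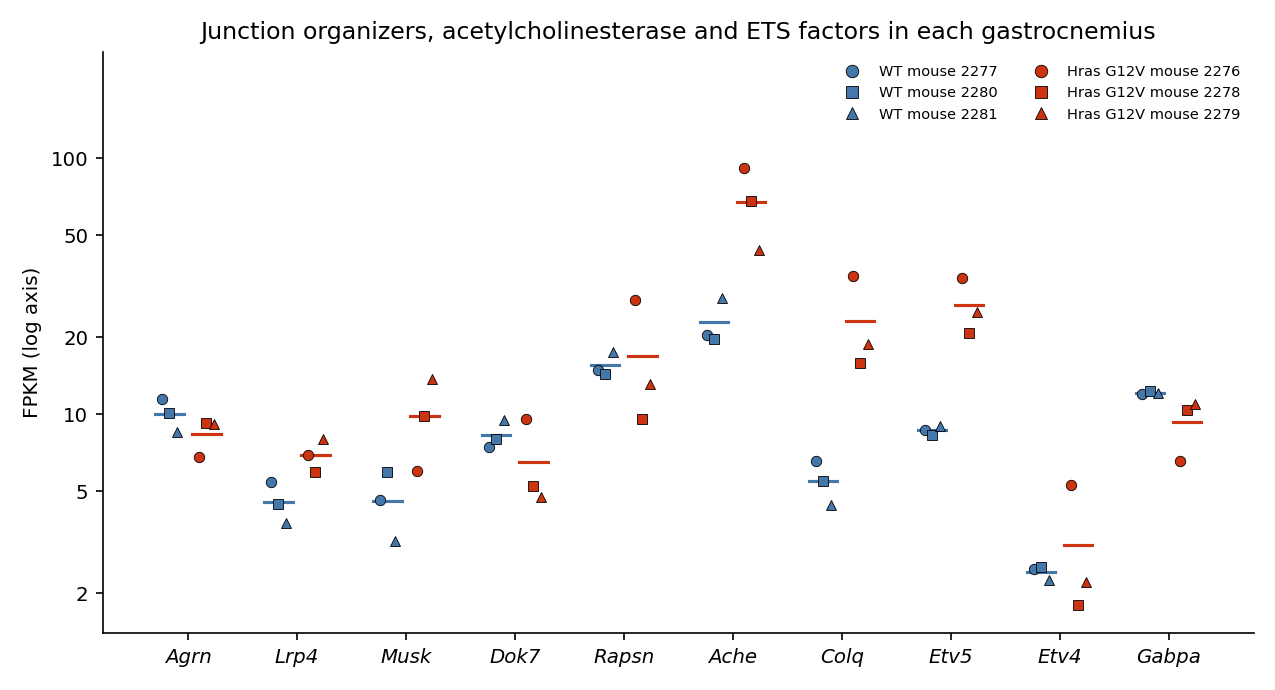
FPKM of the 10 genes (log axis) in each mouse, with WT in blue, Hras G12V in red, a symbol for each mouse and a bar at the mean of 3 mice. Lrp4, Musk, Ache, Colq and Etv5 are higher in every Hras G12V mouse, Gabpa is lower in every one, and the other 4 overlap.

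The adaptor and the clustering protein downstream of MuSK were not higher as a group. Dok7 (chromosome 5, 35056766 to 35087839, plus strand) was at 7.43, 7.99 and 9.48 FPKM in WT and at 9.55, 5.27 and 4.75 FPKM in Hras G12V mice. Mouse 2276 had the highest value of all 6 and mice 2278 and 2279 the lowest, so the log2 fold change of -0.40 (SE 0.28) was an average of opposite differences and was -0.71 without mouse 2276. The ratio of Dok7 to Musk FPKM was 1.61, 1.35 and 2.97 in WT mice, 1.59 in mouse 2276, and 0.536 and 0.347 in mice 2278 and 2279.

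Rapsn (chromosome 2, 91035620 to 91045729, plus strand) was at 14.9, 14.3 and 17.5 FPKM in WT and at 27.9, 9.62 and 13.1 FPKM in Hras G12V mice. Mouse 2276 again lay above all WT mice, and mice 2278 and 2279 below all of them. The coefficient of variation was 10.8% in WT and 57.6% in Hras G12V mice, the log2 fold change was -0.03 (SE 0.38), and it took the value -0.46 without mouse 2276 and 0.30 without mouse 2278. An antisense transcript, Gm13778, overlaps Rapsn by 1638 bases in the GENCODE annotation, and the strand setting of the authors' counting is not given in the sources used here.

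Relative to the receptor subunit genes Chrna1 and Chrne, whose protein it clusters, Rapsn was lower in every Hras G12V mouse. Ratios to Chrnd and Chrng were not taken. Chrna1, the alpha subunit, was at 8.70, 11.1 and 11.0 FPKM in WT and reached 82.3, 54.5 and 83.4 FPKM in Hras G12V mice, where it rose by a log2 fold change of 2.81 (SE 0.23, adjusted p = 0.0252 in limma). Chrne, the subunit of the adult receptor, was at 13.4, 12.9 and 12.4 FPKM in WT and reached 219, 97.1 and 109 FPKM in Hras G12V mice, where it rose by 3.35 (SE 0.33, adjusted p = 0.0440 in limma). Both were higher in every Hras G12V mouse. The adjusted p was above 0.05 for both without any 1 WT mouse or without mouse 2279, at up to 0.165 for Chrna1 and 0.268 for Chrne, and for Chrne also without mouse 2278, at 0.0510. It was also above 0.05 for both without moderation of the variance (0.238 and 0.262), for Chrna1 with libraries rescaled to the same total (0.0569), and for Chrne with a pseudocount of 1 (0.0703) or no filter (0.0952). For each FPKM of Chrna1 there were 1.71, 1.29 and 1.59 FPKM of Rapsn in WT mice, and 0.339, 0.177 and 0.157 in Hras G12V mice. For each FPKM of Chrne the Rapsn level was 1.11, 1.11 and 1.41 in WT mice and 0.127, 0.0991 and 0.120 in Hras G12V mice. For Chrnb1, the beta subunit, the ratio overlapped, with 0.405, 0.368 and 0.413 in WT and 0.350, 0.256 and 0.399 in Hras G12V mice. In mouse 2276, where Rapsn was high, Chrnb1 was at 79.8 FPKM against 37.6 and 32.8 FPKM in the other 2 Hras G12V mice and 36.8 to 42.4 FPKM in WT mice.

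The genes of acetylcholinesterase and its collagen tail were both higher in every Hras G12V mouse. Ache (chromosome 5, 137287519 to 137294466, plus strand) was at 20.4, 19.7 and 28.4 FPKM in WT and at 91.2, 68.2 and 43.7 FPKM in Hras G12V mice. The lowest Hras G12V mouse stood above the highest WT mouse, and the means were 22.9 ± 4.84 and 67.7 ± 23.8 FPKM (SD, n = 3), a log2 fold change of 1.52 (SE 0.31). Ufsp1, a protease gene on the same strand that begins 162 bases past the end of Ache, had 17.5, 18.5 and 23.1 FPKM in WT and 90.9, 45.8 and 30.1 FPKM in Hras G12V mice. The order of the mice was the same for both genes within Hras G12V, and whether they share reads was not tested. The lincRNA Gm42456 overlaps Ache by 1144 bases on the other strand. On the same strand the microRNA gene Mir8116 overlaps Ache by 97 bases. Mir8116 was at 25.8, 16.7 and 0 FPKM in WT and at 43.7, 42.5 and 36.4 FPKM in Hras G12V mice. The erythroid marker Hbb-b1, a beta globin gene, was at 1209, 967 and 375 FPKM in mice 2276, 2278 and 2279 and between 413 and 487 FPKM in WT mice. Alas2, the enzyme of heme synthesis in these cells, was at 21.5, 23.4 and 9.60 FPKM in the same mice and between 8.505 and 11.0 FPKM in WT mice, and the erythroid anion exchanger gene Slc4a1 was at 1.46, 7.05 and 3.15 FPKM against 0.479 to 0.584 FPKM. Erythroid cells also make acetylcholinesterase, the order of the Hras G12V mice was the same for Ache and Hbb-b1 but not for Alas2 or Slc4a1, and the part of erythroid transcripts in the Ache level was not tested.

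Colq (chromosome 14, 31523082 to 31591343, minus strand) was at 6.59, 5.50 and 4.44 FPKM in WT and at 34.8, 15.9 and 18.8 FPKM in Hras G12V mice. It had the largest log2 fold change of the 10 genes, 1.98 (SE 0.32), with means of 5.51 ± 1.07 and 23.1 ± 10.2 FPKM (SD, n = 3), and without mouse 2276 the value was 1.65. The gene model Gm49387 overlaps Colq by 38439 bases on the same strand, so reads could be divided between them. The ratio of Colq to Ache FPKM overlapped between the genotypes, at 0.322, 0.279 and 0.156 in WT and 0.381, 0.233 and 0.430 in Hras G12V mice.

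The other anchor of the enzyme had the opposite difference. Prima1, which encodes the membrane anchor of acetylcholinesterase, was at 4.70, 6.91 and 11.7 FPKM in WT and at 1.59, 1.31 and 3.06 FPKM in Hras G12V mice, below WT in all 3, with a log2 fold change of -1.90 (SE 0.42) that did not pass the adjusted test (limma adjusted p = 0.349). The ratio of Prima1 to Ache was 0.230, 0.350 and 0.410 in WT and 0.0174, 0.0193 and 0.0701 in Hras G12V mice, with no overlap. Relative to Colq, Prima1 was at 0.713, 1.25 and 2.63 in WT and at 0.0457, 0.0828 and 0.163 in Hras G12V mice. Hspg2, which encodes perlecan, the basal lamina proteoglycan that binds the collagen-tailed enzyme, was at 67.1 ± 1.79 FPKM in WT and 49.1 ± 5.35 FPKM in Hras G12V mice (SD, n = 3), a log2 fold change of -0.45 (SE 0.18, adjusted p = 0.481 in limma). Bche, the gene of butyrylcholinesterase, overlapped between the genotypes, at 3.14, 3.67 and 3.19 FPKM in WT and 1.79, 3.46 and 2.84 FPKM in Hras G12V mice.

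**Figure D2:**
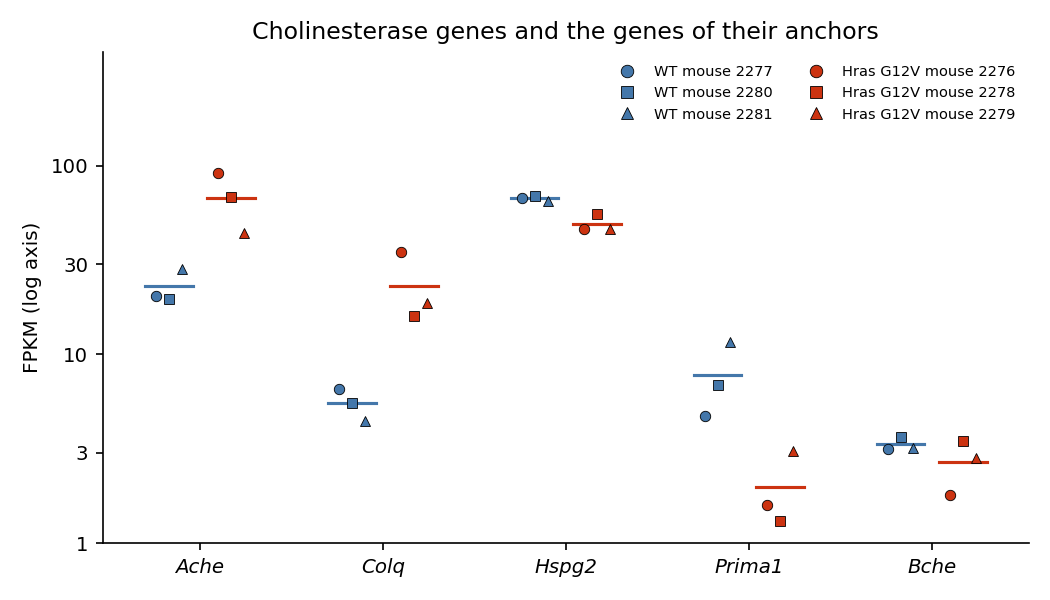
FPKM (log axis) of Ache, Colq, Hspg2, Prima1 and Bche in each mouse, with WT in blue, Hras G12V in red and a bar at the mean of 3 mice. Ache and Colq lie higher and Prima1 and Hspg2 lower in every Hras G12V mouse, and Bche overlaps.

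The 3 ETS genes each behaved differently. Etv5 (chromosome 16, 22381309 to 22439719, minus strand), whose transcript is enriched at subsynaptic nuclei, was at 8.72, 8.28 and 9.00 FPKM in WT and at 33.9, 20.8 and 25.2 FPKM in Hras G12V mice. The WT mice were close together, with a coefficient of variation of 4.19%, and the Hras G12V mice were all far above them, with one of 25.1%. The log2 fold change was 1.58 (SE 0.21), and 1.39 without mouse 2276.

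Etv4 (chromosome 11, 101769742 to 101785371, minus strand), its close relative, was at 2.48, 2.54 and 2.26 FPKM in WT and at 5.29, 1.80 and 2.21 FPKM in Hras G12V mice. Only mouse 2276 was above the WT mice and the other 2 were below all of them, so the log2 fold change of 0.19 (SE 0.39) was -0.27 without mouse 2276. The ratio of Etv5 to Etv4 was 3.52, 3.26 and 3.99 in WT and 6.42, 11.5 and 11.4 in Hras G12V mice.

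Gabpa (chromosome 16, 84834925 to 84863779, plus strand), the DNA-binding subunit of the factor GABP, was at 12.1, 12.3 and 12.1 FPKM in WT and at 6.60, 10.4 and 11.0 FPKM in Hras G12V mice. It was the only member lower in every Hras G12V mouse, with a log2 fold change of -0.41 (SE 0.22) that was -0.18 without mouse 2276. Its WT values were the least variable of the 10, with a coefficient of variation of 1.29%. Etv5 stood at 0.723, 0.671 and 0.745 times the Gabpa level in WT mice and at 5.14, 2.00 and 2.29 times in Hras G12V mice, so the order of the 2 genes differed between the genotypes in every mouse. Atp5j, on the opposite strand, overlaps Gabpa by 701 bases and was at 380, 359 and 382 FPKM in WT and 822, 197 and 217 FPKM in Hras G12V mice, and whether reads are shared was not tested. Gabpb1, the gene of the GABP partner subunit, overlapped between the genotypes with a log2 fold change of -0.04 (SE 0.13, adjusted p = 0.957 in limma).

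In WT muscle the levels per length ran from Ache through Rapsn, Gabpa, Agrn, Etv5, Dok7, Colq, Musk and Lrp4 to Etv4. Neighbours in this order were separate in all 3 mice except for Agrn and Etv5, Etv5 and Dok7, Colq and Musk, and Musk and Lrp4, whose ranges overlapped. Against all genes tested, the WT mean of Ache stood at the 79.3rd percentile and that of Etv4 at the 25.4th. In Hras G12V muscle the order of the means was Ache, Etv5, Colq, Rapsn, Musk, Gabpa, Agrn, Lrp4, Dok7 and Etv4. Of these neighbours only Ache and Etv5 were separate in all 3 mice. Etv5 stood at rank 5 in WT and 2 in Hras G12V muscle, Colq at 7 and 3 and Musk at 8 and 5, while Dok7 stood at 6 and 9 and Gabpa at 3 and 6. In bulk muscle, fewer nuclei or cells of a kind and less RNA from each cannot be told apart, and a junction makes up a small part of each fiber.

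The Hras G12V mice differed from each other in which members stood out. Mouse 2276 had the highest Ache, Colq, Etv5, Rapsn, Dok7 and Etv4 and the lowest Agrn, Musk and Gabpa of the 3. Against the WT mean on the log2 scale it stood at 0.84 for Rapsn, 1.10 for Etv4, 0.43 for Musk and -0.87 for Gabpa. Mice 2278 and 2279 had higher Musk (1.13 and 1.60) and lower Dok7 (-0.64 and -0.78) and Rapsn (-0.68 and -0.24) than the WT mean. The 3 mice were on the same side of the WT mean for Agrn, Lrp4, Musk, Ache, Colq, Etv5 and Gabpa. Mouse 2276 also had the highest sum of FPKM, and the part of library composition in these differences was not tested.

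**Figure D3:**
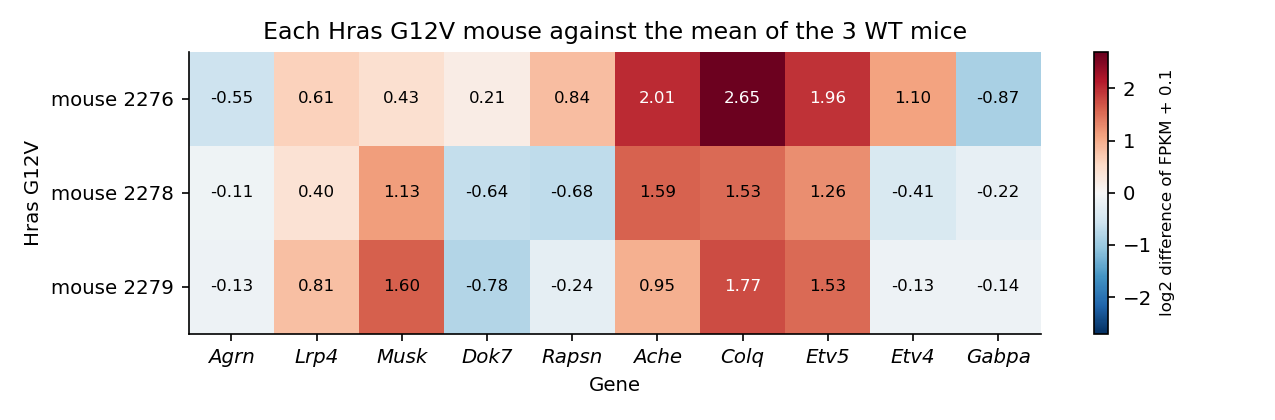
Difference of each Hras G12V mouse (rows) from the mean of 3 WT mice on the log2(FPKM + 0.1) scale for the 10 genes (columns), with red higher and blue lower. Ache, Colq and Etv5 are red in all 3 mice, whereas Rapsn, Dok7 and Etv4 are red in mouse 2276 and blue in mice 2278 and 2279.

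By counts, 5 of the 10 members were higher in every Hras G12V mouse, where 8.11% of the 13359 genes tested were, and 1 was lower in every one, where 10.4% were. The count of lower members was 4 without mouse 2276, where 28.2% of all genes were lower in every mouse, and 2 without WT mouse 2281, where 12.6% were. In limma, 5 members (Lrp4, Musk, Ache, Colq and Etv5) were higher at an unadjusted p below 0.05, where 5.18% of all genes were, and 0 were lower, where 4.99% were. At an adjusted p below 0.05 the count was 0 of 10, where 0.0599% of all genes (8 of 13359) were called in either direction. The median log2 fold change of the 10 was 0.40 and that of all genes tested was -0.03. Without mouse 2276 there were 7 members past the unadjusted p, with Dok7 and Rapsn added, where 29.9% of all genes were, and 5 past the adjusted p, where 10.3% were. Without WT mouse 2281 or mouse 2279 there were 3 past the unadjusted p, with Lrp4 and Musk lost, where 4.53% and 11.3% of all genes were. As the members were proposed from this contrast, all of these counts describe them and nothing is read from the comparison.

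Other genes of the junction and of its regulation came from 7 lists of 89 genes, of which 78 could be tested. These lists too were chosen with earlier results of these data known, so their counts are a description and nothing is read from the comparison. An adjusted p below 0.05 was reached by 2 of the 78, both of them higher (Chrna1 and Chrne), where 0.0599% of all genes were called. An unadjusted p below 0.05 was reached by 8 that were higher and 3 that were lower, where 5.18% and 4.99% of all genes were. Over the 78 genes 40 had a log2 fold change above 0, beside 46.6% of all genes tested. The number higher in every Hras G12V mouse was 12, and 11 were lower in every one, beside 8.11% and 10.4% of all genes. Among the 5 receptor subunits the median log2 fold change was 0.79. Chrnd, the delta subunit, was higher in every Hras G12V mouse at 2.19, 2.23 and 1.95 against 7.31, 3.07 and 2.32 FPKM, and its adjusted p was 0.560 in limma. Chrng, the subunit of the fetal receptor, was under 1 FPKM in all 6 mice and overlapped.

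The 15 partners of MuSK signalling included 0 genes called by limma at either p, and 3 with a log2 fold change above 0, beside 46.6% of all genes. In every Hras G12V mouse 5 of the 15 were lower (Crk, Crkl, Abl2, Rac1 and Ctnnb1, named after their values were seen) and 0 were higher, beside 10.4% and 8.11% of all genes, with log2 fold changes of the 5 between -0.38 and -0.23 and limma adjusted p of 0.515 to 0.737. The median of the list was -0.23 beside -0.03 for all genes, from Bgn at -0.66 (SE 0.33, adjusted p = 0.557 in limma), a proteoglycan that binds MuSK, to Cav3 at 0.22 (SE 0.41, adjusted p = 0.897 in limma), the caveolin of muscle. Of 18 genes of the synaptic matrix and membrane anchors, 5 had a log2 fold change above 0, beside 46.6% of all genes, and the median was -0.28. Besides Prima1 and Hspg2, the gene past the unadjusted p there was Col13a1, a transmembrane collagen of the junction, at 0.918 ± 0.193 FPKM in WT and 1.83 ± 0.365 FPKM in Hras G12V mice (SD, n = 3), a log2 fold change of 0.93 (SE 0.26, adjusted p = 0.398 in limma). The neuregulin receptors Erbb2 and Erbb3 differed by 0.07 and -0.33 on the log2 scale (limma adjusted p = 0.937 and 0.779), and Nrg1 and Erbb4 were too low to test.

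Of 9 genes that respond to denervation or electrical activity, 7 were tested. A log2 fold change above 0 was found for 6, beside 46.6% of all genes, with a median of 0.15. Ncam1, the adhesion molecule that spreads over denervated fibers, was at 4.77 ± 0.814 FPKM in WT and 8.20 ± 1.02 FPKM in Hras G12V mice (SD, n = 3), a log2 fold change of 0.77 (SE 0.18, adjusted p = 0.355 in limma). Myog, the myogenic factor that denervation induces, overlapped at 14.6, 20.2 and 21.0 against 31.9, 16.9 and 12.3 FPKM, and Hdac4 had the lowest value of the list at -0.10.

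Among 19 other ETS family genes tested, the median log2 fold change was 0.07 and 11 were above 0, beside 46.6% of all genes. The genes past the unadjusted p were Spi1 and Spib, factors of myeloid and B cells. Spib was at 0.0836 to 0.121 FPKM in WT mice, 0.151 FPKM in mouse 2276, and 8.40 and 7.08 FPKM in the mice with B and T cell transcripts (log2 fold change 3.60, SE 1.33, adjusted p = 0.477 in limma). Spi1 was at 1.15 ± 0.131 FPKM in WT mice and at 1.90, 4.75 and 3.61 FPKM in Hras G12V mice, the highest again in mice 2278 and 2279. Elk4 had the lowest log2 fold change, -0.73 (SE 0.50, adjusted p = 0.668 in limma).

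Of 12 feedback and target genes of the ERK pathway, through which Hras signals and of which Etv4 and Etv5 are known targets, 10 had a log2 fold change above 0, where 46.6% of all genes did, and the median was 0.32. In every Hras G12V mouse 4 of the 12 were higher (Ccnd1, Spry1, Spry2 and Phlda1) and 1 was lower, beside 8.11% and 10.4% of all genes. Ccnd1, cyclin D1, was at 3.48 ± 0.281 FPKM in WT and 7.96 ± 3.66 FPKM in Hras G12V mice (SD, n = 3), a log2 fold change of 1.06 (SE 0.35, adjusted p = 0.439 in limma). Spry1, an inhibitor of receptor tyrosine kinase signalling, was at 16.0 ± 0.516 and 23.4 ± 5.16 FPKM (SD, n = 3), a log2 fold change of 0.52 (SE 0.21, adjusted p = 0.481 in limma). Il17rd, another such inhibitor, was lower in every Hras G12V mouse with a log2 fold change of -0.63 (SE 0.25, adjusted p = 0.484 in limma). Dusp6, the ERK phosphatase, overlapped at 11.9, 12.4 and 11.0 against 11.7, 13.2 and 11.3 FPKM, with a log2 fold change of 0.04.

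**Figure D4:**
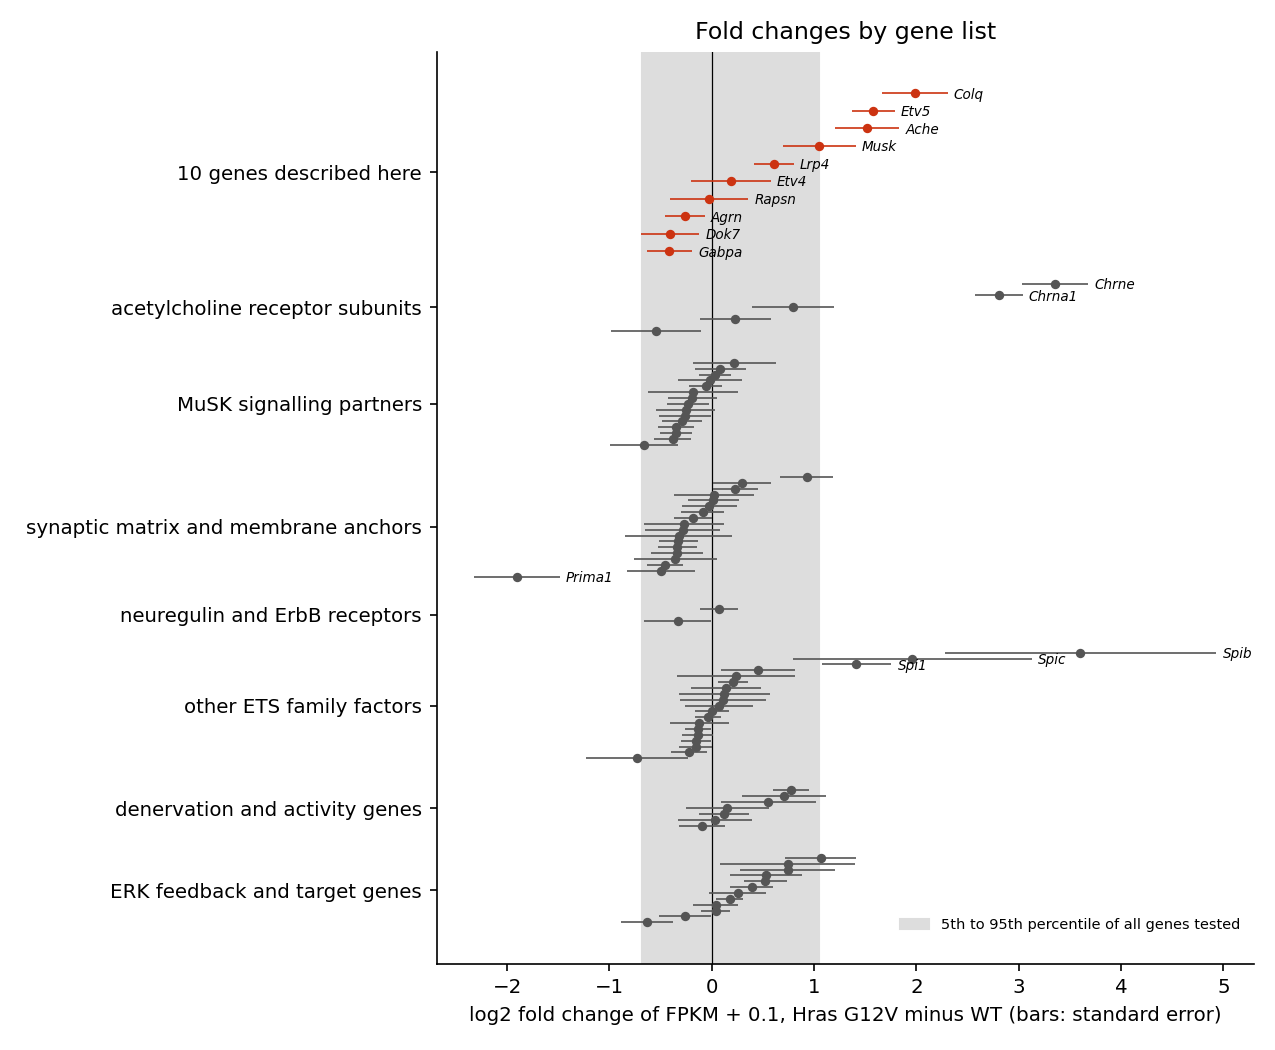
Log2 fold changes (Hras G12V minus WT, bars for standard errors) of the 10 genes in red and of the tested genes of 7 other lists in gray, with the shaded band from the 5th to the 95th percentile of all genes tested (-0.68 to 1.05). Colq, Etv5 and Ache lie above the band, as do Chrna1, Chrne, Spib, Spi1, Spic and, at its edge, Ccnd1, whereas Prima1 and Elk4 lie below it.

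The genes whose levels over the 6 libraries were most like those of Musk and Etv5 were found by Pearson's r on the log2 scale among 12177 genes with a mean of at least 1 FPKM, as a description over 6 mice of 2 genotypes. For Musk they were Il10rb (0.993), Ifi47 (0.993), Frem2 (0.992), Slc9a3r1 (0.990) and Topors (0.988). For Etv5 they were 4930544D05Rik (0.999), Chrne (0.996), Ptpn2 (0.994), Lrrc45 (0.993) and Idnk (0.991). The range of Chrne was 12.4 to 13.4 FPKM in WT and 97.1 to 219 FPKM in Hras G12V mice, and, as for Etv5, mouse 2276 was the highest and mouse 2278 the lowest Hras G12V mouse. The first of these, 4930544D05Rik, lies within Chrne on the opposite strand (chromosome 11, 70615848 to 70616890 against 70614883 to 70619216), so reads may be shared and the pair may be 1 signal counted under 2 names.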

How the data were processed

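From total RNA of 6 gastrocnemius muscles, stranded mRNA libraries were prepared and read from a single end. The authors aligned reads with TopHat and made FPKM with Cufflinks and Cuffnorm, and the deposited files hold those FPKM, 1 value per symbol and library. The submitters' processing notes name GRCm38 (mm10) and no tool versions, while annotation and strand setting of counting were not given in the sources used here. Because Cuffnorm adjusts each library to the others, a total of FPKM is no depth. Low values were searched for steps of whole reads. The fullest interval of 1% width held 0.722% to 3.98% of the genes below 0.3 FPKM, so no counts were recovered and no count model was used. An exact 0 can be a failed estimate.

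Groups came from the sample labels (mice 2277, 2280 and 2281 WT, and mice 2276, 2278 and 2279 Hras G12V). Log2(FPKM + 0.1) of 13359 genes with a mean of at least 0.5 FPKM was fitted over the 6 libraries without covariates in limma 3.58.1 under R 4.3.3 (empirical Bayes with a trend, two-sided, Benjamini-Hochberg adjustment over all genes tested, threshold 0.05), and the script was tested on simulated data. Each library is 1 mouse. The p-values and standard errors rest on the spread between these mice, which the fit moderates toward that of genes of similar level.

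The 10 genes and all lists were chosen with earlier results of these data known. Named genes are the 10, Hras, list genes past the adjusted p or, where a list had none, its highest and lowest log2 fold change, list genes past the unadjusted p without overlap between genotypes, and the 5 genes most like Musk and Etv5. Chrnb1, Chrnd, Chrng, Bche, Gabpb1, Dusp6, Myog, Spry2, Phlda1, the 5 lower MuSK partners, the neighbours on the genome and the ratios were chosen after their values were seen. Gene positions are from GENCODE vM21 and promoter sequences from RefSeq (GRCm38.p6). Alternatives were pseudocounts of 1 and 0.01, no filter, a filter of 1 FPKM, quantile normalization, rescaling to 1 total, no moderation, array weights and leaving out each mouse. A summed level of the erythroid markers is not reported here.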

Additional observations from a re-analysis of the deposited data

How the results depend on the processing

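Log2 fold changes of Lrp4, Musk, Ache, Colq and Etv5 kept their direction under each alternative. As these genes were chosen from the same contrast, that is no evidence of stability. Over the sets without 1 mouse those of Ache, Colq and Etv5 were 1.27 to 1.80, 1.65 to 2.21 and 1.39 to 1.74. Rapsn ran from -0.46 to 0.30 and Etv4 from -0.27 to 0.48 over the same sets. Chrna1 and Chrne stayed higher, with adjusted p from 0.00412 to 0.165 and from 0.000646 to 0.268 without 1 mouse, and up to 0.238 and 0.262 under the other settings.

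Counts depended on the setting, and the cause was not tested. Without 1 mouse, genes past the unadjusted p ran from 606 (without WT mouse 2281) to 4006 (without mouse 2276) against 1358, and genes past the adjusted p from 6 to 1374 against 8. Members past the unadjusted p ran from 3 (without mouse 2281 or 2279, where 606 and 1497 genes were) to 7 (without mouse 2276) against 5, and past the adjusted p from 0 to 5 against 0. List genes ran from 6 to 25 against 11, and from 0 to 9 against 2. A pseudocount of 1 gave 5 genes and 1 list gene past the adjusted p, no filter 1 list gene beside 6 genes in all, and quantile normalization 1 member beside 9 genes in all. Rescaling to 1 total gave 717 genes and 3 members past the unadjusted p and 1 list gene past the adjusted p. No moderation gave 1 gene and 0 list genes past the adjusted p. Array weights gave 3042 genes and 24 list genes past the unadjusted p, and 572 genes, 3 members and 4 list genes past the adjusted p. Without both mice with B and T cell transcripts, an alternative chosen after seeing the data that leaves 1 Hras G12V mouse assumed to vary like the WT mice, 6372 genes and 44 list genes were past the unadjusted p, and 4673 genes, 6 members and 37 list genes past the adjusted p. In that fit Dok7 was at 0.21, Rapsn at 0.84 and Etv4 at 1.10 on the log2 scale.

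No paired analysis was possible because the labels number the mice and the genotypes share no number. With 3 mice in each group and no counts, precision is known only from the moderated spread between mice.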
